A study of Homo sapiens with 8 samples.

Results

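The 4 PFKFB genes, PFKFB1, PFKFB2, PFKFB3 and PFKFB4, encode the bifunctional enzymes that make and break down fructose-2,6-bisphosphate. They were measured on Affymetrix 3' expression arrays in HepG2 cells, a human liver tumour line. Members were the probe sets that the platform annotation assigns to exactly 1 of these symbols, which gave 10 of 54675 probe sets and 4 of the 19775 genes that have such a probe set. The family was chosen from the quercetin differences of PFKFB3, which had opposite signs early and late, so the members' quercetin differences below are a description, with no p-value.

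The study asked how quercetin, a plant flavonol, alters gene expression in these cells. The quercetin arrays came from cells given 3 µM quercetin in serum-free medium for 2, 4, 12 or 24 h, and the control arrays from cells given serum-free medium alone for the same times. All cells had been starved of serum beforehand. There was 1 array for each treatment and time, 8 in all, so a difference between quercetin and control at 1 time compares 1 array with 1 array. Values are log2 expression per probe set, and a difference of 1 means a doubling of signal. A value stands for its own probe set only, so levels are compared between arrays and not between genes.

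Fructose-2,6-bisphosphate is the strongest allosteric activator of phosphofructokinase-1, the committing enzyme of glycolysis, and an inhibitor of fructose-1,6-bisphosphatase, its counterpart in gluconeogenesis. Each PFKFB protein carries a kinase that makes this signal and a phosphatase that removes it, and the balance differs between isoforms. PFKFB1 is the classical liver isoform, which glucagon turns towards its phosphatase. PFKFB2 is known from heart, where insulin signalling activates its kinase. PFKFB3 has a kinase that far outweighs its phosphatase and is common in proliferating and tumour cells. PFKFB4 was first found in testis and is also expressed in tumours. PFKFB3 and PFKFB4 are both known targets of hypoxia-inducible factor (HIF).

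The RefSeq promoter table (build GRCh38.p14) held 2 start sites of PFKFB3, on chromosome 10, 1 of PFKFB4, on chromosome 3, and 2 of PFKFB1, on chromosome X. The 3 windows of the 2 genes whose levels differed most between arrays are printed here, from 250 bases before to 50 bases after the start site, 5′ to 3′ along the gene. Capitals mark ACGTG or GCGTG on either strand, the core that HIF binds, of which GCGTG is also the core bound by the aryl hydrocarbon receptor.
PFKFB3 at chr10:6144671-6144970, plus strand: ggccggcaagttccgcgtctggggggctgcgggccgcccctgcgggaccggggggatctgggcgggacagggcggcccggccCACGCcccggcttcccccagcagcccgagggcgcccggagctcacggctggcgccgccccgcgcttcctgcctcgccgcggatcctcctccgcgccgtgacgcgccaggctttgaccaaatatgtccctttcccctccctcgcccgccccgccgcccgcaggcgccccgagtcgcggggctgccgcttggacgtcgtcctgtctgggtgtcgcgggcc
PFKFB3 at chr10:6202682-6202981, plus strand: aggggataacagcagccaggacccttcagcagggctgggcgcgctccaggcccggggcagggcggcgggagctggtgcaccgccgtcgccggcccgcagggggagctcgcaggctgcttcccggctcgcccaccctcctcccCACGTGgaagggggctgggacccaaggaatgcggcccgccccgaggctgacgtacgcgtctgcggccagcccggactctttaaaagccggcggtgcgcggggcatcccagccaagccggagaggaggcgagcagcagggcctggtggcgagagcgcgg
PFKFB4 at chr3:48556754-48557053, minus strand: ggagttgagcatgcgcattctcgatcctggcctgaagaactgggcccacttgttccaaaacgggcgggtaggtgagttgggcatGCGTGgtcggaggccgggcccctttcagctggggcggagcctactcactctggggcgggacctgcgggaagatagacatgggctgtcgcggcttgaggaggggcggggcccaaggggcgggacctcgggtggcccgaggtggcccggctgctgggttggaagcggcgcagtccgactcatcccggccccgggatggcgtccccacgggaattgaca
Each of the 3 windows held the core at 1 place. It began at position -168 from the start site in the first PFKFB3 window, at -108 in the second and at -166 in that of PFKFB4. In the second PFKFB3 window the capitals form CACGTG, an E-box, which contains ACGTG once on each strand. Both PFKFB1 windows lacked the core. A match is common: 48.45% of 35116 promoter windows of this length held ACGTG or GCGTG on either strand, and 7.256% held CACGTG.

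All 4 genes had a probe set bright enough to be tested. For each gene the brightest probe set by mean stood for it, and the 13298 genes with a mean over 7.43 (the middle value of all probe set means) entered the tests. Of the 10 probe sets, 5 lay above that value, namely 202464_s_at for PFKFB3, 228499_at and 206246_at for PFKFB4, 207537_at for PFKFB1 and 207931_s_at for PFKFB2. The other 2 probe sets of PFKFB1 and 3 of PFKFB2 had means from 5.76 to 6.66 and were described only.

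PFKFB3 was the member that moved most between arrays. Its single probe set read 6.64, 6.63, 9.30 and 8.91 in the quercetin arrays at 2, 4, 12 and 24 h, and 7.18, 7.90, 8.66 and 8.81 in the control arrays. The 4 arrays of 12 and 24 h all lay above the 4 arrays of 2 and 4 h. Of the early arrays only the control array of 4 h lay above the filter value of 7.43. PFKFB3 thus passed the filter through its mean over all arrays, and its other early values were dim. Whether the probe set could show a still lower level was not tested. In quercetin cells the level was flat from 2 to 4 h (-0.01) and 2.67 higher at 12 h than at 4 h, while in control cells it was 0.72 higher at 4 h than at 2 h and 0.76 higher at 12 h than at 4 h. Quercetin minus control was thus -0.54, -1.27, 0.64 and 0.10 in order of time. At 4 h quercetin cells held 0.41 times the control signal, the lowest of all 13298 differences at that time, where 0.0226% of genes were at least 1 lower. At 12 h they held 1.55 times the control signal, 249th from the top, and at 24 h 1.07 times. The mean difference over the 4 times was -0.27, and 0.06 if the 4 h pair was left out. The mean of 12 and 24 h exceeded that of 2 and 4 h by 1.27, the second highest value of all genes tested. PFKFB3 was picked for this pattern, so the value and its rank are a description only. Over all genes limma called 49 (0.368%) by this measure, 37 of them (0.278%) higher late. It called 0 with quantile normalization, cyclic loess or eBayes without trend. The PFKFB3 value was between 0.90 (4 h pair left out) and 1.64 (2 h pair left out) on leaving out 1 pair of arrays.

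PFKFB4 had the same sequence of signs as PFKFB3 with its brighter probe set. It read 9.74, 8.69, 10.85 and 10.95 in the quercetin arrays at 2, 4, 12 and 24 h, and 10.18, 9.67, 10.52 and 10.81 in the control arrays. Here too all arrays of 12 and 24 h lay above all arrays of 2 and 4 h. The control arrays dipped at 4 h, and the quercetin arrays dipped further. Quercetin minus control was -0.43, -0.98, 0.33 and 0.14 at the 4 times. The 4 h value, 0.51 times the control signal, was the seventh lowest of all genes at that time. The mean of the late differences exceeded that of the early ones by 0.94, which ranked 32nd from the top. Differences below 0 at 2 and 4 h and above 0 at 12 and 24 h were found for 2 of the 4 members and for 5.76% of all genes tested. This count holds the pattern for which PFKFB3 was picked.

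The other PFKFB4 probe set, 206246_at, did not follow. It read 9.03, 8.76, 8.90 and 8.76 in the quercetin arrays and 8.76, 8.91, 8.70 and 9.07 in the control arrays. These arrays overlapped at early and late times, and quercetin minus control was 0.27, -0.15, 0.21 and -0.31. Across the 8 arrays the 2 PFKFB4 probe sets correlated at 0.11, while 228499_at correlated with PFKFB3 at 0.86. With the mean of both probe sets PFKFB4 differed by -0.08, -0.57, 0.28 and -0.08, so its sign at 24 h turned. Why the probe sets differ was not tested, and the PFKFB4 values hold for 228499_at alone.

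**Figure D1:**
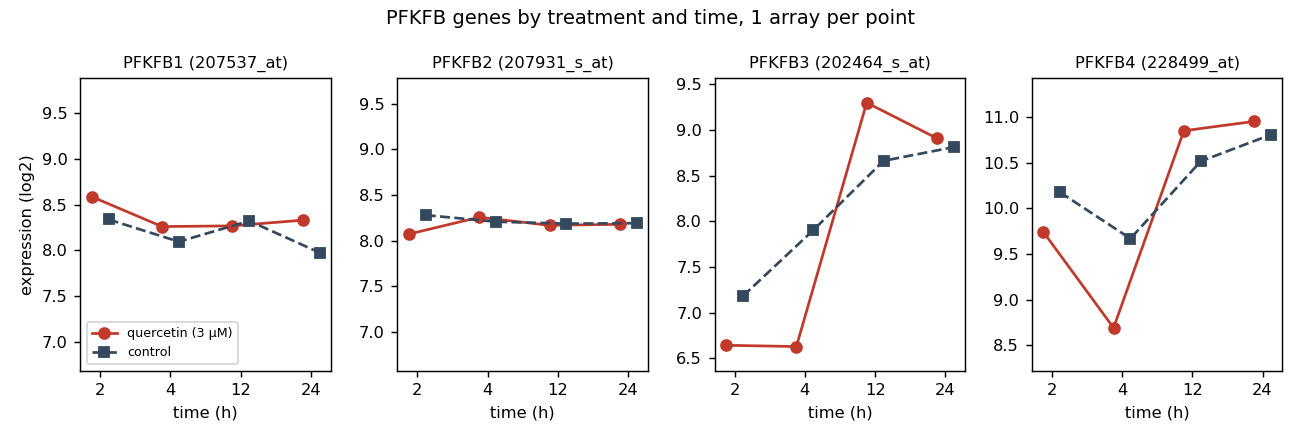
Log2 expression of the probe set that represents each PFKFB gene against time in hours, with quercetin (3 µM) as red circles and control as grey squares, 1 array per point; every panel spans the same range on the vertical axis. PFKFB3 and PFKFB4 lie lower in quercetin than in control cells at 2 and 4 h and higher at 12 h, while PFKFB2 stays between 8.07 and 8.28.

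PFKFB1 varied little between arrays and its quercetin differences were mostly above 0. Probe set 207537_at read 8.59, 8.26, 8.27 and 8.33 in the quercetin arrays and 8.34, 8.10, 8.32 and 7.98 in the control arrays. The 2 treatments overlapped, with the highest value in quercetin cells at 2 h and the lowest in control cells at 24 h. Quercetin minus control was 0.25, 0.17, -0.05 and 0.35. The difference at 24 h lay at percentile 93.3 of all genes, where 0.233% were at least 1 higher. The dim probe sets 237777_at and 240883_at differed by 0.14, 0.03, -0.08 and 0.03 and by 0.28, 0.10, 0.01 and 0.08, so at 2 and 4 h all 3 PFKFB1 probe sets were above 0. 

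PFKFB2 was the steadiest member. Probe set 207931_s_at read 8.07, 8.26, 8.17 and 8.18 in the quercetin arrays and 8.28, 8.21, 8.19 and 8.19 in the control arrays, with an SD of 0.06 over the 8. Quercetin minus control was -0.21, 0.05, -0.02 and -0.01. At 2 h the 4 PFKFB2 probe sets disagreed in sign, with 0.31 for 238450_at, 0.14 for 226733_at and -0.28 for 209992_at. No PFKFB2 probe set differed by more than 0.31 in size at any time. The late minus early value was 0.06 for PFKFB2 and -0.06 for PFKFB1.

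**Figure D2:**
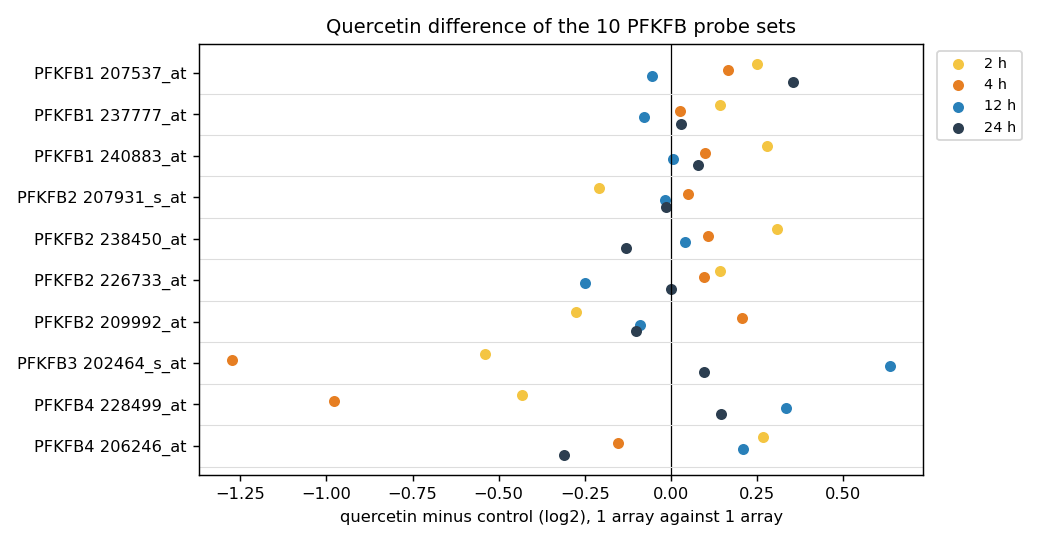
Quercetin minus control on the log2 scale (horizontal axis) for each of the 10 PFKFB probe sets (rows), with 1 point per time of 2, 4, 12 or 24 h, each the difference of 1 array from 1 array. PFKFB3 and PFKFB4 228499_at have both early points left of 0 and both late points right of it, and PFKFB4 206246_at does not.

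Over all 13298 genes limma called 0 (0%) for quercetin against control with time as a block, while 785 (5.90%) fell under 0.05 before adjustment. The mean differences over the 4 times were -0.23 for PFKFB4 (0.02 if the 4 h pair was left out), 0.18 for PFKFB1 and -0.05 for PFKFB2, beside -0.03 for the median gene. At single times the median gene differed by -0.06, -0.02, 0.05 and -0.10.

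Time in serum-free medium was tested in the same model. The choice of members did not use the changes over time, but it used how the quercetin differences of PFKFB3 varied between times. That variation is also the error in these tests, so the SE and p-values of PFKFB3 are not independent of the choice. The quercetin and control array of each time act as its 2 values, so the p-values measure the spread between those arrays and not between cultures treated alike. PFKFB3 rose by 1.95 ± 0.29 (SE) at 24 h against 2 h, or 3.86-fold, with an adjusted p of 7.70e-05 in limma. Its mean was 6.91 at 2 h, below the filter value, and 8.86 at 24 h, so the rise and its fold start from a dim level. PFKFB3 rose by 2.07 ± 0.29 at 12 h against 2 h, the fourth highest change of all genes (adjusted p = 0.000413 in limma). At 4 h against 2 h the change was 0.35 ± 0.29 and did not pass (adjusted p = 0.561 in limma), and its sign turned to -0.32 without the control array of 4 h. PFKFB4 rose by 0.92 ± 0.23 at 24 h against 2 h, or 1.89-fold (adjusted p = 0.00602 in limma). Its changes of 0.72 at 12 h and -0.78 at 4 h, both against 2 h, did not pass (adjusted p = 0.0920 and 0.0940 in limma). PFKFB1 and PFKFB2 did not pass at any time, with changes at 24 h of -0.31 ± 0.19 and 0.01 ± 0.19 (adjusted p = 0.270 and 0.977 in limma).

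By these tests 2 of 4 members were called at 24 h, both higher, where 21.3% of all genes were called, 17.3% higher and 3.98% lower. At 12 h 1 of 4 was called higher, where 1.68% of all genes were higher and 1.32% lower. None of the 4 was called at 4 h, where 0.534% of genes were called in either direction. The F-test over the 4 times called PFKFB3 (adjusted p = 1.03e-05 in limma) and PFKFB4 (2.81e-05), and 38.1% of all genes. The arrays of 12 and 24 h lay above all those of 2 and 4 h for 2 of 4 members and for 8.65% of genes. PFKFB3 is in all of these counts of members except that at 4 h. It passed the filter of 7.43 only through its late arrays, its means being 6.91 at 2 h and 7.26 at 4 h. The counts that hold PFKFB3 are thus a description only. The PFKFB3 rise at 24 h stayed called in each of 14 alternatives, between 1.70 and 2.19. The PFKFB4 call at 24 h was lost with quantile normalization (0.62), with the mean of its probe sets (0.47), without the quercetin array of 2 h (0.79) and without that of 24 h (0.67). Of all genes called at 24 h 81.3% were higher, and 57.2% with quantile normalization and 60.2% with cyclic loess. At 12 h the share was 55.9%, and 70.0% after median centring, 68.8% with quantile normalization and 66.1% with cyclic loess.

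Array controls differed between early and late arrays, with overlap. The 18S ribosomal RNA probe sets averaged 12.01 and 11.62 in the quercetin arrays at 2 and 4 h and 7.29 and 9.16 at 12 and 24 h. In the control arrays they averaged 8.57, 11.52, 7.35 and 9.82. Spike-in signal was lowest in the control array at 2 h and both arrays at 12 h, from 11.19 to 11.35, and 11.83 to 12.11 in the other 5. The 3' minus 5' signal of ACTB, a sign of RNA quality, was 1.11, 1.17, 0.88 and 1.39 in the quercetin arrays in order of time, and 0.88, 1.12, 1.40 and 1.36 in the control arrays. Quercetin minus control was thus 0.24, 0.04, -0.52 and 0.03 for ACTB, and 0.10, 0.004, -0.13 and 0.01 for GAPDH, with signs opposite to those of PFKFB3 at 2, 4 and 12 h. The part of these signals in the PFKFB3 and PFKFB4 changes was not tested. The 4 h pair, where PFKFB3 and PFKFB4 differed most, had quercetin minus control values of 0.10 for 18S and -0.05 for the spike-ins, and the 2 h pair 3.44 and 0.86. Of the hepatocyte markers 9 of 10 were measured, with means from 10.90 to 15.09, among them ALB and AFP. Markers of other cell types had means from 5.29 (LUM, fibroblast) to 9.40 (TEK, endothelial), leukocyte PTPRC being at 7.52 and epithelial CDX2 at 7.69, except for lysozyme (LYZ) at 13.99. Summed as log2 of linear signal, leukocyte markers spanned 14.01 to 14.26 in quercetin and 13.48 to 14.20 in control arrays, and endothelial markers 10.23 to 10.62 and 10.08 to 10.65. Fibroblast markers spanned 10.29 to 10.57 and 10.18 to 10.53, and other epithelial markers 8.69 to 8.86 and 8.49 to 8.98. Of 9 such markers tested, TEK was called lower at 24 h against 2 h (-0.71) and LYZ lower at 12 h (-0.45). Their part in the PFKFB values was not tested.

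**Figure D3:**
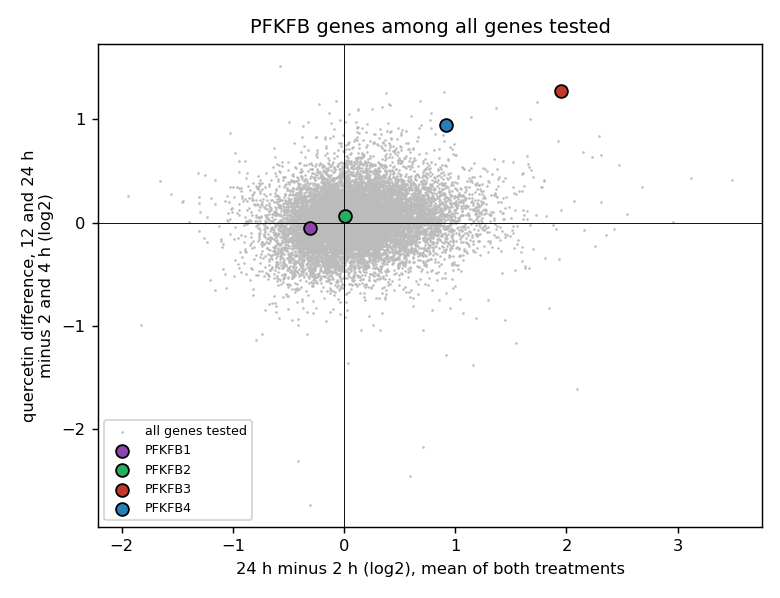
Each of 13298 genes tested as a grey point, with the change from 2 to 24 h averaged over both treatments on the horizontal axis and the late minus early quercetin difference on the vertical axis, both in log2 units. PFKFB3 (1.95 and 1.27) and PFKFB4 (0.92 and 0.94) lie in the upper right, and PFKFB1 and PFKFB2 near the centre.

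The genes whose log2 profile over the 8 arrays was most like that of PFKFB3, by Pearson correlation among 9274 other genes with an SD of at least 0.2, were FAM204A (0.98), GPATCH1 (0.98), BHLHE40 (0.95), RLF (0.95) and FGD4 (0.94). BHLHE40, a basic helix-loop-helix repressor induced by hypoxia and part of the clock, differed between quercetin and control by -0.63, -0.61, 0.51 and 0.25. RLF, a zinc finger protein, differed by -0.50, -0.41, 0.32 and -0.03. The remaining 3 had differences of at most 0.53 in size. PFKFB4 ranked 146th for likeness to PFKFB3, at 0.86. For PFKFB4 the closest were NUP107, a nuclear pore protein (0.99), ZW10, a kinetochore protein (0.97), and ITGB5, an integrin subunit (0.97). The closest to PFKFB1 were MUC17 (0.90), PRR18 (0.88) and OR2C1 (0.87), and to PFKFB2 DDX20 (0.83), TRMT6 (0.83) and TBRG1 (0.83). PFKFB1 and PFKFB2 themselves had SDs of only 0.18 and 0.06. DDX20, TRMT6 and TBRG1 differed most between quercetin and control at 2 h, by -0.98, -0.90 and -1.01. PFKFB3 correlated with PFKFB1 at -0.45 and with PFKFB2 at -0.10. These correlations describe 8 arrays that share a time course.

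**Figure D4:**
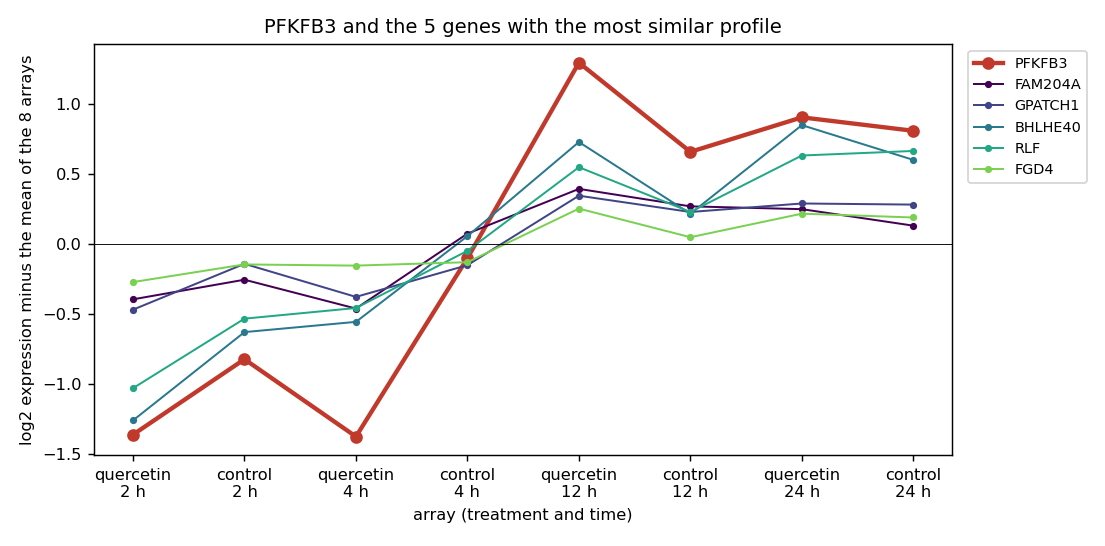
Log2 expression minus each gene's mean over the 8 arrays (vertical axis) for PFKFB3 in bold red and the 5 genes with the most similar profile, over the arrays in order of time with quercetin left of control. Before the mean is subtracted PFKFB3 runs from 6.63 in the quercetin array of 4 h to 9.30 in that of 12 h, and the others cover a narrower range.

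The enzymes that fructose-2,6-bisphosphate acts on did not show the signs of PFKFB3. Of the phosphofructokinase-1 subunits, PFKL differed between quercetin and control by 0.09, 0.05, 0.32 and -0.25 and PFKP by -0.06, 0.42, -0.15 and 0.34. PFKM was dim and not tested, with differences from -0.10 to 0.32. At 24 h against 2 h PFKL (-0.16) and PFKP (-0.39) did not pass. PFKL passed with quantile normalization (-0.41) and turned to 0.04 without the quercetin array of 24 h, and PFKP was -0.13 with the mean of its 2 probe sets, which differed in sign. FBP1, the liver fructose-1,6-bisphosphatase, differed by 0.27, 0.18, -0.09 and -0.17, signs opposite to those of PFKFB3 at each time. TIGAR, a p53 target with fructose-2,6-bisphosphatase activity, differed by -0.66, 0.16, 0.04 and -0.39. At 24 h against 2 h FBP1 (0.28) and TIGAR (0.50) did not pass. On leaving out 1 array FBP1 ranged from 0.13 to 0.43 and TIGAR from 0.21 to 0.80, which passed without the control array of 2 h. FBP2 was dim, with quercetin differences from -0.35 to 0.38.

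Among 21 measured glucose transporters and other glycolysis enzymes, the number lower with quercetin was 19, 15, 4 and 8 in order of time. Of all genes tested 58.0%, 54.2%, 40.7% and 66.2% were lower. The median difference of the 21 was -0.17, -0.06, 0.26 and 0.02, and that at 12 h was 0.10 with quantile normalization or cyclic loess. HK2, the inducible hexokinase, came closest to PFKFB3 in size, at -0.67, -0.84, 0.55 and 0.16. SLC2A3, a glucose transporter, differed by -0.52, -0.34, 0.15 and 0.32, and PKM, the pyruvate kinase of proliferating cells, by -0.38, -0.03, 1.03 and -0.03. HKDC1, a hexokinase, differed by -0.17, 0.41, 0.29 and -0.69, and PKLR, the liver pyruvate kinase, by -0.26, -0.36, 0.16 and 0.14. At 24 h against 2 h limma called 2 of 21 higher, HK2 (1.37) and SLC2A3 (0.98), and 0 lower, beside 17.3% and 3.98% of all genes. PKM (0.36) and PKLR (-0.47) did not pass. PKM ranged from 0.01 to 0.72 on leaving out 1 array and passed without the control array of 2 h or either array of 12 h, and PKLR passed with cyclic loess (-0.58). The median change was 0.08 and that of all genes 0.09. With cyclic loess the median was -0.01, and 1 was called lower. HK2 did not pass with the mean of its 3 probe sets (0.23), of which 1 had a positive change.

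Most hypoxia targets were higher at 24 h than at 2 h. Of 23 measured, limma called 19 higher and 0 lower, beside 17.3% and 3.98% of all genes, with a median of 0.79 against 0.09 for all genes. This list, like the other lists, was chosen with earlier results of these data known, so its counts are a description. At 12 h against 2 h, where PFKFB3 was already higher, 6 were called higher and 2 lower (1.68% and 1.32% of all genes), with a median of -0.04. At 4 h 1 was called higher and 4 lower (0.0376% and 0.496% of all genes), with a median of -0.37. With quantile normalization or cyclic loess 14 were called higher at 24 h, with medians of 0.54 and 0.57. Large rises were those of ANKRD37 (3.12), RORA, a nuclear receptor (1.95), KDM3A, a histone demethylase (1.92), INSIG2, which retains sterol sensors in the endoplasmic reticulum (1.80), and BHLHE40 (1.67). With the mean of their probe sets KDM3A rose by 0.97 and BHLHE40 by 1.101. The other of 2 ANKRD37 probe sets rose by 0.57. The 8 RORA probe sets ran from -0.15 to 1.95, of which 6 had a positive change. LOX, lysyl oxidase, rose by 1.73 (0.91 without the quercetin array of 2 h), DDIT4, an inhibitor of mTOR signalling, by 1.25 and PDK1, which shuts pyruvate out of the mitochondrial cycle, by 0.78. The PDK1 call held in 10 of 15 alternatives, and was lost with quantile normalization (0.49), cyclic loess (0.54) and eBayes without trend, and without the quercetin array of 2 h (0.25) or of 24 h (0.46). In order of time 19, 21, 9 and 8 of the 23 were lower with quercetin than in control cells, with medians of -0.39, -0.24, 0.10 and 0.05. With quantile normalization the medians at 12 and 24 h were 0.01 and 0.14, and with cyclic loess 0.02 and 0.18. PDK1 differed by -1.10, -0.56, 0.28 and 0.19 and LOX by -1.30, -0.003, 0.41 and 0.64. DDIT4 differed by 0.10, -0.71, 0.43 and -0.63.

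**Figure D5:**
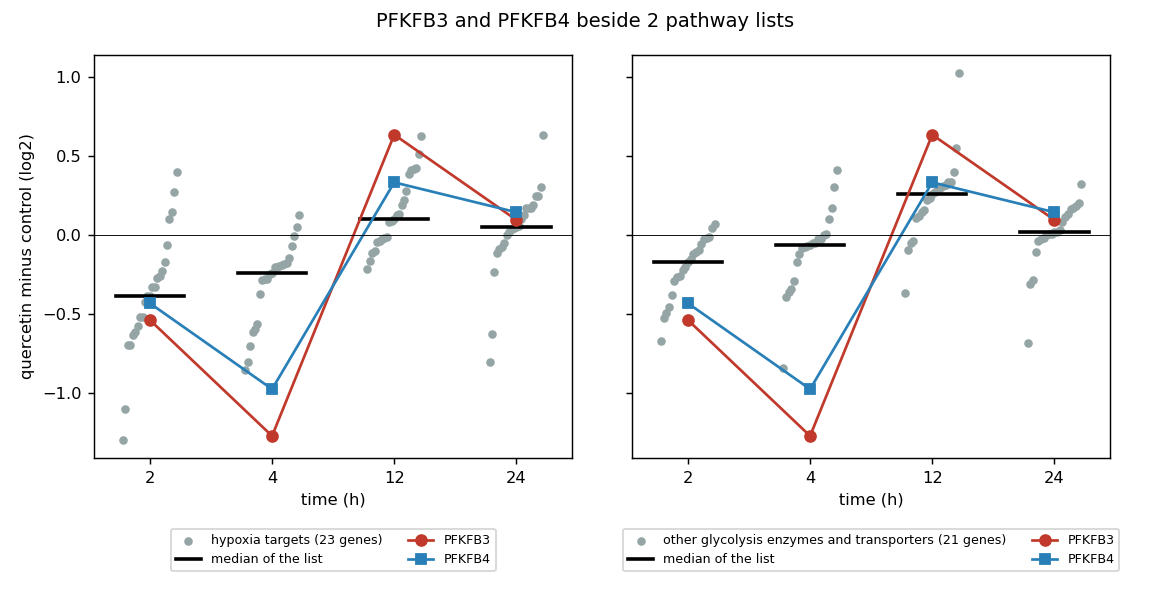
Quercetin minus control in log2 units at 2, 4, 12 and 24 h for 23 hypoxia targets (left) and 21 glucose transporters and glycolysis enzymes (right) as grey points with a black bar at their median, and PFKFB3 and PFKFB4 as lines. At 4 h PFKFB3 (-1.27) and PFKFB4 (-0.98) lie below every point of both lists, and the medians are -0.24 and -0.06.

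Of 7 tested members of the HIF pathway limma called 2 higher at 24 h against 2 h and 0 lower, EGLN1, a prolyl hydroxylase that marks HIF for degradation (1.06), and EPAS1, the HIF-2 alpha subunit (0.44), beside 17.3% and 3.98% of all genes. The list median was 0.19, and with quantile normalization -0.02 and cyclic loess -0.03, where 1 member was called. The EPAS1 call held in 8 of 15 alternatives, and its change was 0.22 with quantile normalization and 0.08 with the mean of its 3 probe sets. Their medians between quercetin and control were -0.12, 0.03, 0.13 and -0.01. The first turned to 0.02 with cyclic loess, and the fourth to 0.05 with quantile normalization and 0.07 with cyclic loess. EGLN1 differed by -0.59, -0.28, 0.13 and 0.08 and HIF3A by -0.17, -0.25, -0.43 and 0.56. HIF1AN, a HIF hydroxylase, differed by -0.55, 0.19, 0.15 and -0.40 and VHL, part of the HIF ubiquitin ligase, by 0.13, 0.03, -0.05 and -0.59. HIF3A (-0.49), HIF1AN (0.20) and VHL (-0.05) did not pass at 24 h against 2 h, though HIF3A passed without the quercetin array of 24 h (-0.91) and was -0.06 without the control array of 24 h. HIF1AN turned to -0.06 without the quercetin array of 2 h and VHL to 0.26 without that of 24 h.

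Of 15 kinases and ubiquitin ligases known to act on PFKFB proteins, 3 were called higher at 24 h against 2 h and 0 lower, beside 17.3% and 3.98% of all genes, with a median of 0.41. With quantile normalization 1 was called and the median was 0.14, and with cyclic loess 2 and 0.21. They were PRKAB2, a subunit of the energy sensor AMPK (1.18), BTRC, a substrate receptor of a ubiquitin ligase (0.71), and PDPK1, which activates AKT (0.53). PRKAB2 was 0.73 with the mean of its 3 probe sets. The PDPK1 call held in 8 of 15 alternatives, and the change was 0.06 with the mean of its 6 probe sets. BTRC did not pass with quantile normalization (0.49), nor without the quercetin array of 2 h (0.72) or the control array of 24 h (0.55). Quercetin minus control had medians of -0.11, -0.12, 0.04 and -0.29. The first was 0.002 with quantile normalization and the third turned to -0.01, and to -0.02 with cyclic loess. PRKAB2 differed by -0.68, -0.23, -0.31 and -0.42, and PRKAA1, a catalytic subunit of AMPK, by -0.45, -0.18, 0.24 and -0.37. PRKACB, a catalytic subunit of protein kinase A, differed by -0.33, 0.33, -0.40 and -0.30, and RPS6KA1, a ribosomal S6 kinase, by 0.06, -0.13, 0.66 and -0.29. PRKAA2, the other AMPK catalytic subunit, changed by 0.51 at 24 h against 2 h and did not pass. It ranged from 0.15 to 0.87 on leaving out 1 array, passed without the control array of 2 h, and its 5 probe sets ran from -0.38 to 1.33.

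Gluconeogenesis genes, the opposing pathway, were called higher at 24 h against 2 h for 2 of 7 and lower for 0, beside 17.3% and 3.98% of all genes. PCK1, which makes phosphoenolpyruvate, rose by 2.31 and its coactivator PPARGC1A by 1.30. The 2 probe sets of PPARGC1A differed in sign, and their mean changed by 0.56. The median was 0.07 and turned to -0.19 with quantile normalization and -0.17 with cyclic loess. G6PC1, glucose-6-phosphatase, changed by -1.34 at 4 h, -1.26 at 12 h and 0.07 at 24 h, each against 2 h. The PFKFB3 changes at the same times were 0.35, 2.07 and 1.95. The 2 G6PC1 probe sets differed in sign at 24 h. Quercetin minus control was -1.28, -0.32, 0.01 and -0.30 for PCK1, -0.60, 0.08, -0.14 and -0.37 for G6PC1 and -0.47, 0.53, -0.23 and -0.06 for PPARGC1A. PC, pyruvate carboxylase, differed by -0.21, -0.11, 0.23 and -0.26. SLC37A4, the glucose-6-phosphate transporter, changed by -0.33 at 24 h against 2 h and did not pass, but was called lower with quantile normalization (-0.58) and cyclic loess (-0.57).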

How the data were processed

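Per the submitters' processing notes the authors made the deposited log2 values with RMA. For RMA no version or setting is given in the sources used here. Array medians lay between 7.36 and 7.48 and the SD within an array between 1.74 and 1.95, so the arrays did not share 1 distribution. Precision is limited by the number of arrays.

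Platform symbols were updated through Entrez identifiers for 41043 of 41097 probe sets with 1 symbol. Probe sets with several symbols (1801) or unnamed here (11715) named no gene. Of 19775 genes, 6477 were dim and not tested. Limma 3.58.1 in R 4.3.3 (lmFit, eBayes with trend, Benjamini-Hochberg over all genes, threshold 0.05) fitted time and treatment as factors, and a second model added treatment at 12 and 24 h. Code was tested on simulated data: for 24 h against 2 h, shifts of 1 were recovered for 97.0% of changed genes among 13298, with 9.94% of calls false. That false share is above the threshold of 0.05. Shifts of 0.5 were recovered for 34.3%. For the late minus early contrast shifts of 1 were recovered for 56.7%, with 6.90% of calls false. The simulated noise was independent between genes and arrays, which the real arrays need not be.

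Members and gene lists were chosen with earlier results of these data known. Of pathway lists of up to 5 genes every member is named, and of longer ones the 4 with the largest mean size of quercetin difference and the 4 with the largest change at 24 h against 2 h. Marker lists of cell types are given by range and summed signal, with single markers named after their values were seen. The 5 profiles closest to PFKFB3 and the 3 closest to each other member are also named. Alternatives were other filters, the mean of probe sets, median centring, quantile normalization, cyclic loess, eBayes without trend, no time block and leaving out pairs or arrays. Every probe set on its own was added after the data were seen.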

Additional observations from a re-analysis of the deposited data

Results flagged for a closer look

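Among 51 genes named here, 18 had quercetin differences of one sign at both 2 and 4 h and of the other sign at both 12 and 24 h, and these were picked out by sign alone. PFKFB3 was chosen for this pattern. Many of the 51 were named for large quercetin differences or for a profile like that of a member, which raises the count by itself. Limma fitted the late minus early contrast across all genes, and no p-value of it is given here because the same contrast chose PFKFB3. Of the 18, 15 were higher late, a direction found for 5.76% of all genes tested. The share of all genes in the other direction was not counted. The late minus early value was 1.27 for PFKFB3 and 0.94 for PFKFB4. Among hypoxia targets and the HIF pathway it was 1.17 for LOX, 1.06 for PDK1, 1.001 for BHLHE40, 0.54 for EGLN1 and -0.40 for VHL. Among glucose enzymes and transporters it was 1.11 for HK2, 0.67 for SLC2A3, 0.46 for PKLR, -0.36 for FBP1 and -0.20 for SLC37A4, and it was 0.43 for the AMPK subunit PRKAA2. Among genes chosen for a profile like that of PFKFB3 or PFKFB4, it was 0.46 for FAM204A, 0.34 for GPATCH1, 0.19 for FGD4, 0.31 for NUP107 and 0.25 for ZW10.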

How the results depend on the processing

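Each time and treatment had 1 array, so a difference at 1 time has no error. PFKFB3, which was picked for its signs, kept them at each of the 4 times in the 4 alternatives run there. With 1 probe set its mean of probe sets could not differ, and the other alternatives rescale the same arrays. PFKFB4 turned at 24 h with the mean of its probe sets (-0.08). The main model pairs quercetin and control arrays by time, and without that block 0 genes were called as well (71 at an unadjusted p under 0.05). The late minus early value of PFKFB3 was 0.90 to 1.64 on leaving out 1 pair, and its change at 24 h against 2 h 1.70 to 2.19 on leaving out 1 array. Without the control 4 h array its change at 4 h against 2 h was -0.32. PFKFB4 passed at 12 h against 2 h without the quercetin 4 h array (adjusted p = 0.0488 in limma) or the control 12 h array (0.0222).

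Counts of genes called moved more. The late minus early count of 49 was 15 without a filter, 1 with the mean of probe sets, 30 after median centring, 141 for every probe set on its own, and 0 with quantile normalization (624 at an unadjusted p under 0.05), cyclic loess (621) or eBayes without trend (477). It was 8 to 162 on leaving out 1 pair, with 8, 28, 29 and 162 when the pair left out was that of 2, 4, 12 and 24 h. Quercetin over the 4 times had 0 to 1 calls, the 1 without the 2 h pair. At 24 h against 2 h the count of 2831 was 1525 with the mean of probe sets, 4597 for every probe set and 952 to 3230 on leaving out 1 array. It was 952 without the quercetin 2 h array and 1574 and 1057 without the quercetin and control 24 h arrays. The count of 399 at 12 h was 65 with the mean of probe sets, 161 without trend and 52 to 607 on leaving out 1 array, 52 being without the quercetin 2 h array, 607 without the quercetin 12 h array and 209 without the control 12 h array. The count of 71 at 4 h was 39 without a filter, 0 with the mean of probe sets (1453 at an unadjusted p under 0.05), 22 with quantile normalization, 9 with cyclic loess, 4 without trend, 3 for every probe set and 2 to 862 on leaving out 1 array. It was 395 and 2 without the quercetin and control 2 h arrays, 8 and 5 without those of 4 h, 862 and 845 without those of 12 h and 40 without either of 24 h. The F-test count of 5064 was 2873 with the mean of probe sets, 7988 for every probe set and 2539 to 5559 on leaving out 1 array, 2539 being without the control 24 h array. Genes at least 1 apart at 2, 12 and 24 h (63, 46 and 51) were 26, 15 and 24 with the mean of probe sets, and the 9 at 4 h were 16 with quantile normalization. The cause of these moves was not tested.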
